A study of Mus musculus with 52 samples.

Results

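A set of 9 genes of adrenergic and cyclic AMP signalling was followed through 35 lists of chromatin immunoprecipitation sequencing (ChIP-seq) peaks from mouse brown adipose tissue (BAT), the fat depot that burns fuel to make heat. They were 4 adrenergic receptors (Adrb1, Adrb3, Adra1a, Adra2a), 1 adenylyl cyclase (Adcy3), 2 protein kinase A (PKA) subunits (Prkar2b, Prkaca) and 2 phosphodiesterases (Pde3b, Pde4d), 9 of 21631 protein-coding loci in all. Each locus was the GRCm38 gene body with 10 kb on each side, and the measure was the length of the locus under peaks, in kb. The genes were picked by name, with earlier results of these data known.

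Cold makes sympathetic nerves release noradrenaline onto brown fat cells. Beta receptors, of which the beta-3 receptor Adrb3 is the one best known in fat, drive adenylyl cyclases to make cyclic AMP, and cyclic AMP frees the PKA catalytic subunit (Prkaca) from its regulatory subunit (Prkar2b), which starts fat breakdown and heat production. Phosphodiesterases break cyclic AMP down, the alpha-2A receptor Adra2a restrains the cyclases, and the alpha-1A receptor Adra1a signals through calcium.

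Mice were kept at room temperature (RT) or given 4 h of cold. In wild-type (WT) mice, PPARG, the master regulator of fat cells, was profiled in 3 libraries at RT and 3 in cold, and ERR1, a nuclear receptor of mitochondrial genes, in 1 library each. In HA-PPARA KI mice the tagged fatty-acid receptor PPARA was profiled in 2 libraries at RT and 3 in cold. The coactivator PGC1A was profiled in 3 cold libraries, of which 2 came from PGC1A-HIsHA KI mice and the third is labelled with the genotype HA-CEBPA KI. CEBPA was profiled in 3 RT libraries of HA-CEBPA KI mice and CEBPB in 2 cold libraries of HA-CEBPB KI mice, so these factors have no second temperature. PPARA, PGC1A, CEBPA and CEBPB were all pulled down with 1 and the same antibody. H3K27ac, a histone acetylation found at working promoters and enhancers, was mapped in WT mice (3 RT, 3 cold) and in mice labelled TXNIP WT and TXNIP KO (2 libraries for each genotype and temperature). The factor libraries were fixed with 2 mM DSG for 25 min and then 0.8% formaldehyde for 12 min, the H3K27ac libraries with formaldehyde alone. The labels give no age or sex and do not say that replicates are separate animals, so p-values measure the spread between these libraries.

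Peak lists carry no read depth. Their covered totals stand in for it, and these ran from 31.3 to 39.3 Mb for PPARG at RT, 23.8 to 29.5 Mb for PPARG in cold, 13.7 to 16.1 Mb for PPARA at RT and 3.32 to 5.72 Mb for PPARA in cold. H3K27ac totals were 56.6 to 70.3 Mb in the WT mice and 73.2 to 108.0 Mb in the TXNIP mice. The brown adipocyte markers bore peaks at 10 of 10 loci in every PPARG and H3K27ac list, and of 6 skeletal muscle markers 5 (Ckm, Myh1, Myh2, Myh4, Myod1) had none in any H3K27ac list. The targeted gene gives no check of the genotype labels. H3K27ac peaks covered the whole Txnip body in both TXNIP KO groups as in both TXNIP WT groups, and the labels do not say which part was deleted.

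Adra2a, the inhibitory alpha-2A receptor, had no peak of any target in any of the 35 lists, a state it shared with 21.5% of all loci. The other 8 genes had a peak in every list of PPARG, PPARA at RT, CEBPA, CEBPB, ERR1 and H3K27ac. Of all loci, 38.4% (CEBPA and ERR1 at RT) to 67.8% (H3K27ac in TXNIP KO in cold) had a peak in every list of such a group. At RT, PPARG peaks covered a median of 9.99% of the length of the 9 loci, against 1.62% over all loci. Per length, the order of PPARG coverage at RT was Adrb3 (27.1% of the locus), Prkaca (23.5%), Adrb1 (14.2%), Adra1a (10.2%), Adcy3 (9.99%), Prkar2b (6.75%), Pde3b (2.9%) and Pde4d (2.09%). Of neighbours in this order, Adrb3 and Prkaca, Adrb1 and Adra1a, and Adra1a and Adcy3 overlapped between their 3 libraries, and the other neighbours did not. PGC1A was the most selective target, with a peak in at least 2 lists at Adrb3, Adra1a, Adcy3, Prkaca and Pde4d. That is 5 of 9 genes, where 11.1% of all loci had such a peak. The same 5 genes had a PGC1A peak in both lists that carry the PGC1A genotype, where 8.29% of all loci had one.

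Promoter sequences were at hand for 6 of the 9 genes in the RefSeq table of GRCm38.p6, and 4 windows of 250 bases upstream of a start are shown because peaks at them range from every PPARG and PPARA list to none. Capitals mark matches, on either strand, to AGGTCA or GGGTCA (nuclear receptor half-sites), TGACG (a CREB half-site) and TTGCNNAA (a C/EBP palindrome). Over all 32619 listed promoters, windows of this length held these motifs in 14.1%, 11.7%, 17.9% and 9.62%. The windows are Adrb1 on the plus strand at chr19:56721867-56722116, the inner of 2 Prkaca starts on the plus strand at chr8:83976633-83976882, the outer of 2 Prkar2b starts on the minus strand at chr12:32061278-32061527, and Adra2a on the plus strand at chr19:54045009-54045258.
Adrb1: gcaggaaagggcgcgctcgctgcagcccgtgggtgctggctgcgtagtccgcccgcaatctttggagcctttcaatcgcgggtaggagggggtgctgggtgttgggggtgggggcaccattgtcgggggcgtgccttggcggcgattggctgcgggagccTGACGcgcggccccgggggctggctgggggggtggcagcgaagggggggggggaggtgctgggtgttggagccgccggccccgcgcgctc
Prkaca: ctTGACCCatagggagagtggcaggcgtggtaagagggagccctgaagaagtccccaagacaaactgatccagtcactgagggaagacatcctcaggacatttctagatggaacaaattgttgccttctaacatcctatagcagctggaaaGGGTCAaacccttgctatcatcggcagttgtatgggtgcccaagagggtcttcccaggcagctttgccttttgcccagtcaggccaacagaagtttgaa
Prkar2b: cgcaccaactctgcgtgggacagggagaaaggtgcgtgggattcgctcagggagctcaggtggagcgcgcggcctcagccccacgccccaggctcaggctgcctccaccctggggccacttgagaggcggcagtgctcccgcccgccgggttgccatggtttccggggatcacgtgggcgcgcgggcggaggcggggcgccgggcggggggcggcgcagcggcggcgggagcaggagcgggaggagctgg
Adra2a: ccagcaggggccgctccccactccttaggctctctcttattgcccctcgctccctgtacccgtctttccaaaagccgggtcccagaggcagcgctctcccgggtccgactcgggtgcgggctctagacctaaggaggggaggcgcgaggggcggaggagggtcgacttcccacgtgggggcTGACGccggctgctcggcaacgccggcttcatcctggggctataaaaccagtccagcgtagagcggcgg

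Over the Adrb1 window, PPARG had a peak in 3 of 3 RT and 3 of 3 cold lists and PPARA in 2 of 2 RT and 0 of 3 cold lists. The window is rich in G and C (74.0%) and held 1 TGACG and no nuclear receptor half-site. At the Prkar2b window PPARA was likewise present in 2 of 2 RT and 0 of 3 cold lists, and PPARG in 3 of 3 and 2 of 3, and none of the 4 motifs matched. The Prkaca window held GGGTCA once on each strand and had PPARG, PPARA, ERR1 and CEBPB peaks in every list of those targets. The Adra2a window held 1 TGACG and no peak. A match or its absence is only a description of these letters.

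Several factors sat on the same stretches of these genes. Merging the peaks of the 6 factors gave 163 sites that at least 1 factor held in 2 lists or more (in 1 list for ERR1). At 9 of these sites all 6 factors were present, 5 of them in Pde4d, by far the longest of the loci at 1320.0 kb. All 14 H3K27ac lists had a peak at 27 of the 29 sites with 5 or 6 factors, and at 13 of the 82 sites with 1 factor. Wider sites have more room for an overlap, so these shares describe the sites and were not tested.

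The Adrb3 site with all 6 factors, chr8:27229797-27232466, spans the higher-coordinate end of the gene body. All 21 factor lists had a peak there, with the authors' fold enrichment at 57.6 in a CEBPB cold list. At Adra1a the 6-factor site lay inside the gene at chr14:66656863-66659624, with a fold of 51.2 in the ERR1 cold list. The Adcy3 site, chr12:4178676-4180683 within the gene, had a fold of 118.0 in the ERR1 cold list.

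The Prkaca site with all 6 factors was chr8:83963751-83965251, which is 7.73 kb outside the gene body and lies in the body of Asf1b, so it cannot be given to Prkaca alone. In Pde4d, all 21 lists had a peak at chr13:109913962-109916935, and PPARG reached a fold of 70.4 to 106.0 in cold and 75.5 to 86.5 at RT. Prkar2b, Adrb1 and Pde3b had no 6-factor site. Their best-held sites carried 5 factors, at chr12:32045362-32046791 in Prkar2b, chr19:56719956-56723862 over the start of Adrb1 and chr7:114414058-114417774 at the lower-coordinate end of Pde3b. At the Adrb1 site PGC1A was absent from all 3 lists. Another Adrb1 site was held by ERR1 alone, with a fold of 22.7 in cold, at chr19:56728754-56729376, 3.6 kb beyond the gene body.

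**Figure D1:**
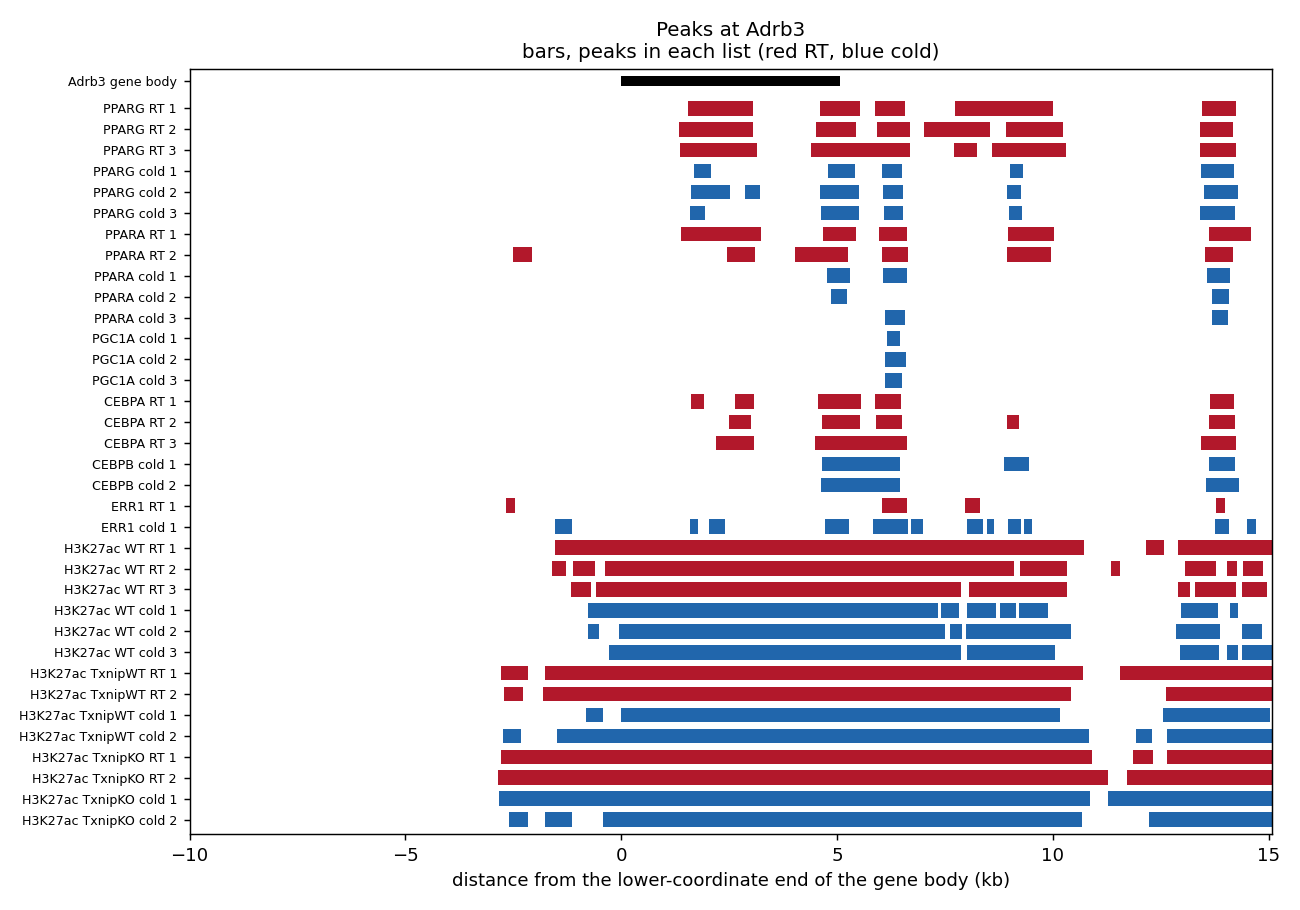
Peaks at Adrb3 in the 35 lists, 1 row a list, by distance in kb from the lower-coordinate end of the gene body (black bar). Of the PPARG peaks, the widest is narrower in cold (blue) than at RT (red), the stretch from 7.73 to 8.25 kb is covered in the 3 RT lists alone, and the 3 PGC1A peaks fall just past the higher end of the body.

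PPARG coverage in cold was lower at Adrb3 and Prkar2b. At Adrb3, PPARG peaks covered 6.19, 7.05 and 7.12 kb at RT and 2.57, 3.72 and 2.77 kb in cold. Every cold list was below every RT list. The number of PPARG peaks there was the same, 5, 6 and 5 at RT and 5, 6 and 5 in cold, while the widest one spanned 1.72 to 2.28 kb at RT and 0.761 to 0.902 kb in cold. A stretch 7.73 to 8.25 kb from the lower-coordinate end of the body was covered in all 3 RT lists and in no cold list. After scaling to the list total, the change was -0.76 ± 0.13 on the log2(length + 500 bp) scale (limma, adjusted p = 0.0133).

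At Prkar2b, the regulatory subunit that prevails in fat, PPARG peaks covered 7.94, 9.54 and 7.48 kb at RT and 4.51, 5.45 and 5.27 kb in cold, again without overlap. The scaled change was -0.34 ± 0.08 (adjusted p = 0.0344). These 2 of the 8 genes tested passed the threshold, both lower, and 10.2% of all 14105 loci tested did.

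Among the other receptors, Adra1a covered 14.4, 19.6 and 13.6 kb at RT and 7.38, 11.2 and 10.4 kb in cold. All cold lists were lower, yet the scaled change of -0.37 ± 0.10 missed the threshold (adjusted p = 0.0521). It passed with stricter peaks (0.0322), with 1000 bp added (0.0476) and with a replicate block (0.0485). Adrb1 changed by -0.28 ± 0.18 (adjusted p = 0.372) and its scaled values overlapped. Prkaca (-0.24), Pde4d (-0.16) and Pde3b (-0.14) gave adjusted p-values of 0.152, 0.159 and 0.581. Adcy3 was the only member with a positive value, 0.18 (adjusted p = 0.323). The median of the 8 genes was -0.26, against 0.03 over all loci. Before scaling, 7 of the 8 genes had all cold lists below all RT lists, as had 28.9% of the loci tested.

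Cell type markers moved in the same lists. Summed over 6 endothelial markers, of which 5 had a peak in every PPARG list and Emcn had none in cold, scaled PPARG coverage was 14.7 to 17.4 kb at RT and 34.2 to 37.2 kb in cold. The 10 brown adipocyte markers, all with peaks in every list, summed to 116.0 to 122.0 kb at RT and 106.0 to 114.0 kb in cold. In bulk tissue, fewer cells of a type and less binding per cell cannot be told apart, and the part of cell makeup in these changes was not tested. The Adrb3 call was lost without the first or the third RT library (adjusted p = 0.0568 and 0.0509) and over the gene body alone (0.158). The Prkar2b call was lost without any 1 of the 6 libraries (adjusted p from 0.068 to 0.0963), with stricter peaks (0.0624), with lists of equal length (0.0691) and with a replicate block (0.0823), while the change kept its sign.

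**Figure D2:**
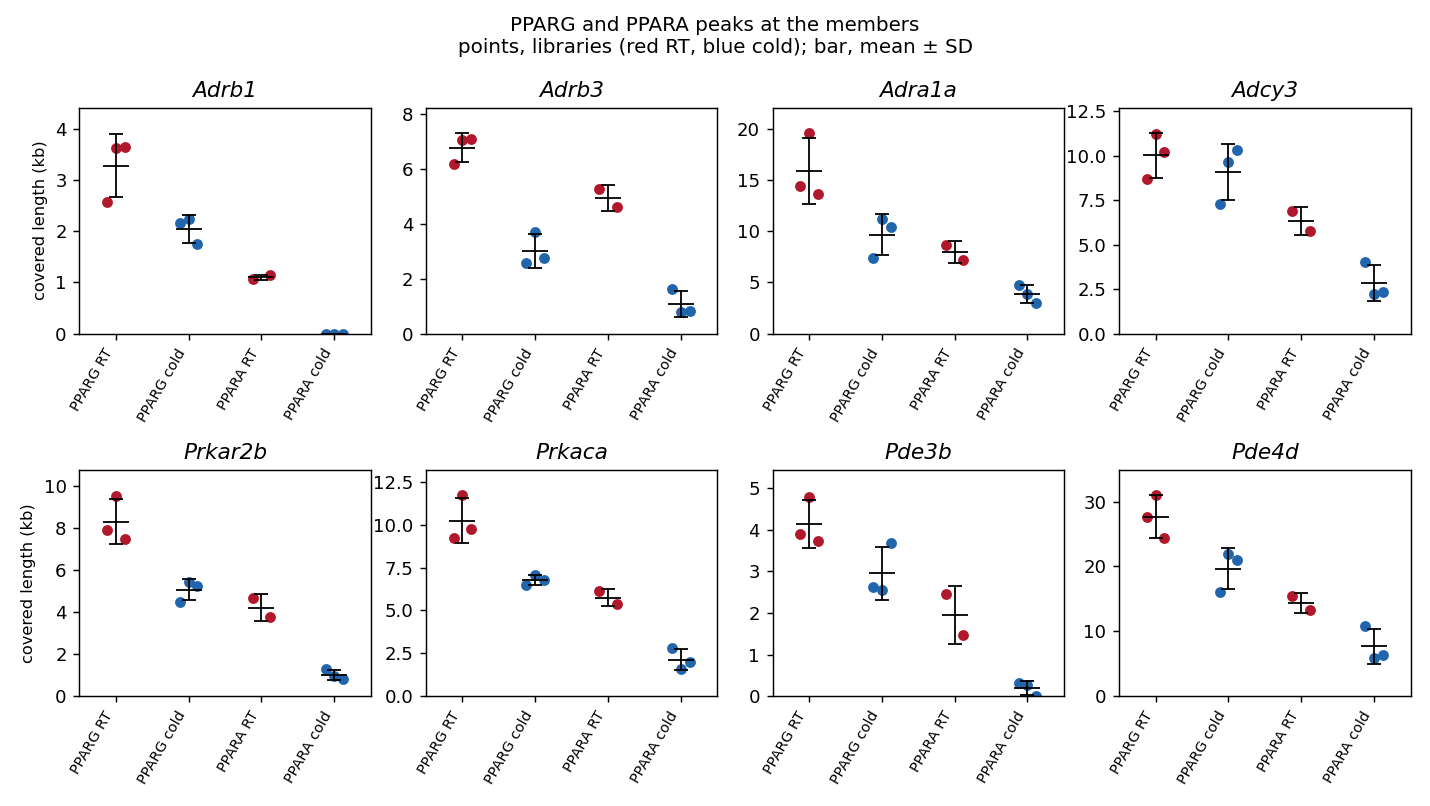
Length of each locus under PPARG and PPARA peaks in kb, before scaling, with 1 point for each library and the mean ± SD. Adra2a has no peak and is not drawn. At Adrb3 the PPARG libraries fall from 6.19 to 7.12 kb at RT to 2.57 to 3.72 kb in cold, and Adrb1 has no PPARA peak in the 3 cold lists.

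At single PPARG sites, 5 of 125 sites at these genes were held by all RT lists and no cold list, and none the other way (5.27% and 1.75% of all PPARG sites). The 5 were in Pde4d (3), Adra1a (1) and past the end of Prkaca in the body of Samd1 (1). Adrb3 and Prkar2b had none of them.

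The cold PPARA lists were shorter than the RT lists, and the members divided around that difference. Before scaling, all 8 genes had every cold list below every RT list, as had 85.0% of the loci tested. Adrb1, whose product is the beta-1 receptor, had 1.07 and 1.14 kb under PPARA peaks at RT and none in the 3 cold lists. Its change passed the threshold by limma (adjusted p = 0.00201), and no fold is given against lists at 0. The locus entered the test through its RT lists alone, and the 3 cold lists at 0 have no spread. This p-value therefore adds no support beyond the lengths themselves. The lost peak, chr19:56721586-56722319, lies over the Adrb1 start shown above. Over the gene body alone the call was lost (adjusted p = 0.0864), and with stricter peaks or lists of equal length Adrb1 had too few lists with a peak to be tested.

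The other 3 calls were of genes that kept more of their PPARA coverage than the list as a whole. Pde4d, a cyclic AMP phosphodiesterase, covered 15.4 and 13.3 kb at RT and 10.8, 5.82 and 6.42 kb in cold, and its share of the list was higher in every cold library. The scaled change was 0.89 ± 0.12 (adjusted p = 0.0051), and without scaling it was -0.90 (adjusted p = 0.053).

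Adra1a covered 8.7 and 7.23 kb at RT and 4.76, 3.87 and 2.98 kb in cold. Its scaled change was 0.76 ± 0.16 (adjusted p = 0.0215) and its unscaled change -0.97 (0.022). Adcy3, which makes cyclic AMP, covered 6.9 and 5.77 kb at RT and 4.04, 2.24 and 2.33 kb in cold, with 0.62 ± 0.10 scaled (adjusted p = 0.0095) and -1.06 unscaled (0.0301). So for all 3 the direction depends on the scaling.

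In all, 4 of 8 genes tested were called, 3 higher and 1 lower, where 35.3% of all 10231 loci tested were. The lower one was Adrb1, with the limit given above. Without scaling 7 were called, all lower, where 6859 of the 10231 loci were called, 6851 of them lower. The median over all loci was -0.44 scaled and -1.09 unscaled, and over the 8 genes 0.10 and -1.46. Adrb3 (5.29 and 4.61 kb at RT, 1.63, 0.779 and 0.832 kb in cold) had a scaled change of -0.33 ± 0.14 (adjusted p = 0.154). Pde3b, which breaks cyclic AMP down in response to insulin, covered 2.45 and 1.46 kb at RT and 0.322, 0.271 and 0 kb in cold (adjusted p = 0.227). Prkaca (0.36) and Prkar2b (-0.15) had adjusted p-values of 0.143 and 0.505. With lists cut to equal length none of the 6 genes that could be tested was called (Adrb1 and Pde3b could not be). Pde3b passed with stricter peaks (adjusted p = 0.0184) and without scaling (0.00972). Without the first or the second RT library Adra1a was not called (adjusted p = 0.12 and 0.111), and a replicate block ended the calls of Adcy3 (0.068) and Pde4d (0.0815).

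Of 93 PPARA sites at the members, 20 were held by both RT lists and no cold list and none the other way (24.1% and 0.248% of all PPARA sites). They were spread over Pde4d (5), Prkaca (4), Prkar2b (3), Adrb3 (2), Adra1a (2), Adcy3 (2), Adrb1 (1) and Pde3b (1). The 2 at Adrb3 were chr8:27227155-27229012 in the gene and chr8:27234715-27235791, 3.87 kb beyond it. All 6 PPARG lists had a peak at both.

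ERR1 had 1 list for each temperature, so there is no test. Its peaks covered 1.36 kb of the Adrb3 locus at RT and 4.14 kb in cold, 0.705 and 6.46 kb of Prkar2b, 0.208 and 2.37 kb of Pde3b and 1.81 and 9.07 kb of Adcy3. All 8 loci with a peak had more length in the cold list, and that list covered 18.2 Mb in all against 5.91 Mb. After scaling, only Prkar2b (1.30) and Pde3b (1.16) were past 2-fold among the 8, where 12.4% of loci were. Without scaling 7 were, where 5798 of 13369 loci were. With lists of equal length none was, and Pde3b turned to -0.63.

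CEBPA and CEBPB, partners of PPARG, were each measured at 1 temperature. CEBPA at RT covered 2.87, 2.9 and 3.81 kb of Adrb3 and 3.05, 3.97 and 6.05 kb of Prkar2b. CEBPB in cold covered 2.99 and 2.59 kb of Adrb3, 4.69 and 5.33 kb of Prkar2b, 28.9 and 28.8 kb of Pde4d and 3.83 and 4.97 kb of Pde3b. The factors and temperatures differ together here and no comparison was made. PGC1A in cold covered 2.57, 2.12 and 2.74 kb of Pde4d, 1.34, 1.84 and 1.34 kb of Adra1a, 1.11, 1.03 and 1.3 kb of Adcy3 and 0.295, 0.489 and 0.392 kb of Adrb3. The third value, from the library labelled with the other genotype, was the highest at Pde4d and Adcy3 and lay between the other values at Adrb3. At Prkar2b PGC1A had a peak of 0.613 kb in the first list only.

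**Figure D3:**
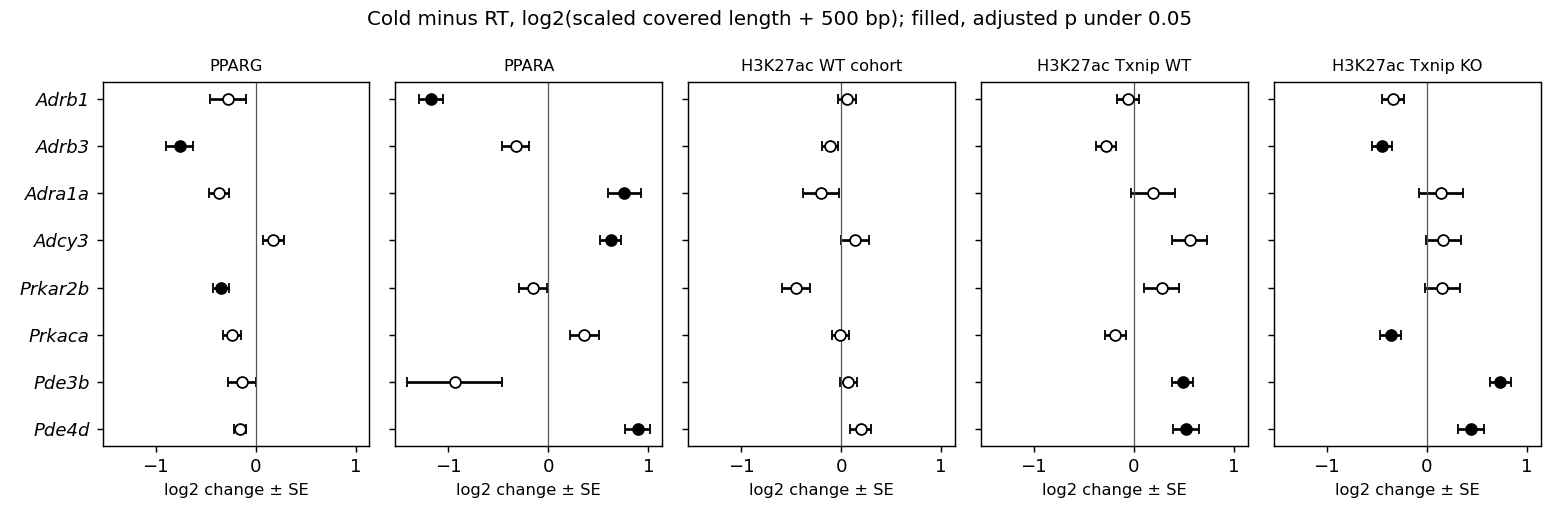
Change of each gene in cold against RT with its standard error, on the log2(scaled length + 500 bp) scale, for PPARG, PPARA and the 3 H3K27ac groups. Filled points passed an adjusted p of 0.05: 2 for PPARG, 4 for PPARA, none in the WT mice, 2 in the TXNIP WT mice and 4 in the TXNIP KO mice.

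H3K27ac covered the bodies of Adrb1 and Adrb3 completely in all 14 lists, so covered length could change only in their flanks. At RT in the WT mice the mark covered 54.3% of the Adrb3 locus, 47.5% of Adrb1, 43.9% of Prkaca, 37.2% of Prkar2b, 20.5% of Adra1a, 19.8% of Adcy3, 7.53% of Pde3b and 3.53% of Pde4d. Over all loci the median was 2.86%.

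In the WT mice none of the 8 genes changed by limma with an adjusted p of 0.05, and 11.9% of 15163 loci did. An unadjusted p under 0.05 was reached by 1 of the 8, Prkar2b. Its H3K27ac length was 56.1, 44.1 and 37.5 kb at RT and 34.4, 28.3 and 30.4 kb in cold, every cold list below every RT list. Before scaling, 3 of the 8 genes had this split and 0 the opposite one. The share over all loci was not counted, so this is no result about the members. The scaled change of Prkar2b was -0.45 ± 0.14 (adjusted p = 0.0631). It passed without the third RT library (0.015), with stricter peaks (0.0167), with lists of equal length (0.0292) and with a replicate block (0.0445). For the beta receptors the changes were 0.06 ± 0.09 at Adrb1 and -0.11 ± 0.08 at Adrb3, with adjusted p-values of 0.765 and 0.456.

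Few single H3K27ac regions at the members were gained or lost, and their shares were not above those of all regions. Of 194 regions at the members, 2 were held by all 3 cold lists and no RT list and 1 by all 3 RT lists and no cold list (1.14% and 2.43% of all regions). The gained ones were chr13:109874920-109876125 and chr13:109895250-109897428 in Pde4d, with folds of 4.21 to 5.0 and 4.71 to 9.87. PPARG had a peak at the first in 6 lists and at the second in 4. The lost one was chr12:32021547-32023879 in Prkar2b, where no PPARG or PPARA list had a peak. Endothelial markers summed to 139.0 to 170.0 kb of scaled H3K27ac at RT and 195.0 to 221.0 kb in cold in these mice, with peaks at 6 of 6 in every list. The brown adipocyte markers summed to 352.0 to 405.0 kb and 342.0 to 380.0 kb. Their part in the values above was not tested.

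In the TXNIP mice the 2 phosphodiesterase genes gained H3K27ac in cold, in both genotypes. Pde3b covered 9.93 and 9.55 kb in TXNIP WT at RT and 14.2 and 16.3 kb in cold. The cold lists were above the RT lists before and after scaling, and the scaled change was 0.49 ± 0.11 (adjusted p = 0.0195). Before scaling, 6 of the 8 genes were higher in cold without overlap and 1 lower in TXNIP WT. In TXNIP KO 5 were higher and 0 lower. The unscaled median change over all loci was 0.122 in TXNIP WT and 0.301 in TXNIP KO. The share over all loci was not counted, and groups of 2 lists separate easily, so these counts are no result about the members. In TXNIP KO Pde3b covered 9.76 and 12.2 kb at RT and 25.5 and 23.1 kb in cold, with a scaled change of 0.74 ± 0.11 (adjusted p = 0.00232). The KO call was kept under all 24 alternatives tried, and the WT call was lost without any 1 of its own 4 libraries (adjusted p from 0.0694 to 0.114), with stricter peaks (0.114) and with lists of equal length (0.0508).

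The added H3K27ac at Pde3b lay inside the gene. The widest peak, at the lower-coordinate end, spanned 8.68 to 9.8 kb in the 4 TXNIP RT lists and 8.5 to 10.3 kb in the 4 cold lists. The number of peaks over the locus was 3 and 2 in TXNIP WT at RT and 8 and 10 in cold, and 2 and 6 in TXNIP KO at RT and 16 and 12 in cold. In the WT mice there were 11, 5 and 4 at RT and 5, 5 and 7 in cold, and the scaled change was 0.07 ± 0.09 (adjusted p = 0.683).

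**Figure D4:**
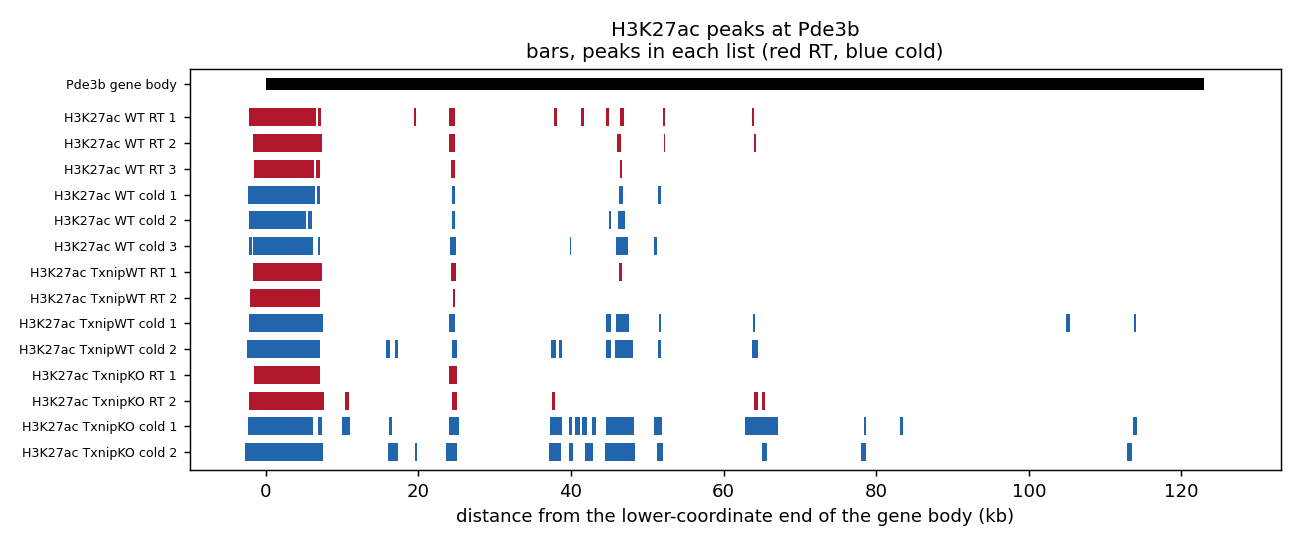
H3K27ac peaks at Pde3b in the 14 lists, by distance in kb from the lower-coordinate end of the gene body (black bar). The broad peak at that end is present in every list, and the TXNIP cold lists (blue) add peaks farther inside the gene, 16 and 12 in all in TXNIP KO.

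Pde4d covered 54.1 and 46.2 kb in TXNIP WT at RT and 80.6 and 77.2 kb in cold, and 43.0 and 55.2 kb in TXNIP KO at RT and 92.9 and 81.7 kb in cold. The groups did not overlap in either genotype, as at most of the genes before scaling. The scaled changes were 0.52 ± 0.13 (adjusted p = 0.0324) and 0.44 ± 0.13 (0.0405). Leaving out any 1 of a genotype's own 4 libraries ended the call, with adjusted p from 0.0636 to 0.202 in TXNIP WT and from 0.0757 to 0.215 in TXNIP KO. The TXNIP WT call was also lost without either TXNIP KO cold library (0.0599 and 0.0704), with stricter peaks (0.0501) and with lists of equal length (0.055), and the TXNIP KO call without the third WT cold library (0.0539), the second TXNIP WT cold library (0.0504) or either TXNIP WT RT library (0.0597 and 0.0617).

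In TXNIP KO the Adrb3 and Prkaca loci took a smaller share of the list total in cold. These lists covered 73.2 and 87.6 Mb at RT and 108.0 and 102.0 Mb in cold, so scaling lowers a locus of unchanged length. The Txnip locus, 94.6% covered at RT and 97.0% in cold, was called lower by limma too (-0.35 ± 0.10, adjusted p = 0.0454). Adrb3 covered 16.6 and 17.5 kb at RT and 17.5 and 15.0 kb in cold, so the lengths themselves overlapped. The scaled change was -0.45 ± 0.10 (adjusted p = 0.0162), and without scaling it was -0.07 (0.66). Prkaca covered 19.6 and 20.5 kb at RT and 20.7 and 19.9 kb in cold, with -0.36 ± 0.11 scaled (adjusted p = 0.0428) and 0.02 unscaled (0.85). The Adrb3 call was lost without the first RT library (0.123) or the second cold one (0.0598) and with lists of equal length (0.0612), and the Prkaca call held under 10 of 24 alternatives (just under the threshold in 1, at 0.05 when rounded, without the second WT RT library), and was lost without any of the TXNIP WT libraries too (adjusted p from 0.0504 to 0.0598). In TXNIP WT the scaled changes were -0.28 ± 0.10 and -0.18 ± 0.11 (adjusted p = 0.133 and 0.354).

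Counting all members, 2 of 8 were called in TXNIP WT, both higher (6.92% of loci were called), and 4 of 8 in TXNIP KO, 2 higher and 2 lower (14.2%). Without scaling the TXNIP KO calls were 2 higher and none lower, where 4294 of 15163 loci were higher and 130 lower. Scaled H3K27ac sums of the endothelial markers were 157.0 to 170.0 kb at RT and 163.0 to 173.0 kb in cold in TXNIP WT, and 162.0 to 170.0 kb and 138.0 to 148.0 kb in TXNIP KO. Those of the 6 fibroblast and preadipocyte markers were 34.9 to 39.1 kb and 41.5 to 46.5 kb in TXNIP WT, and 32.0 to 37.8 kb and 43.4 to 45.6 kb in TXNIP KO. How far these markers bear on the phosphodiesterase genes was not tested.

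**Figure D5:**
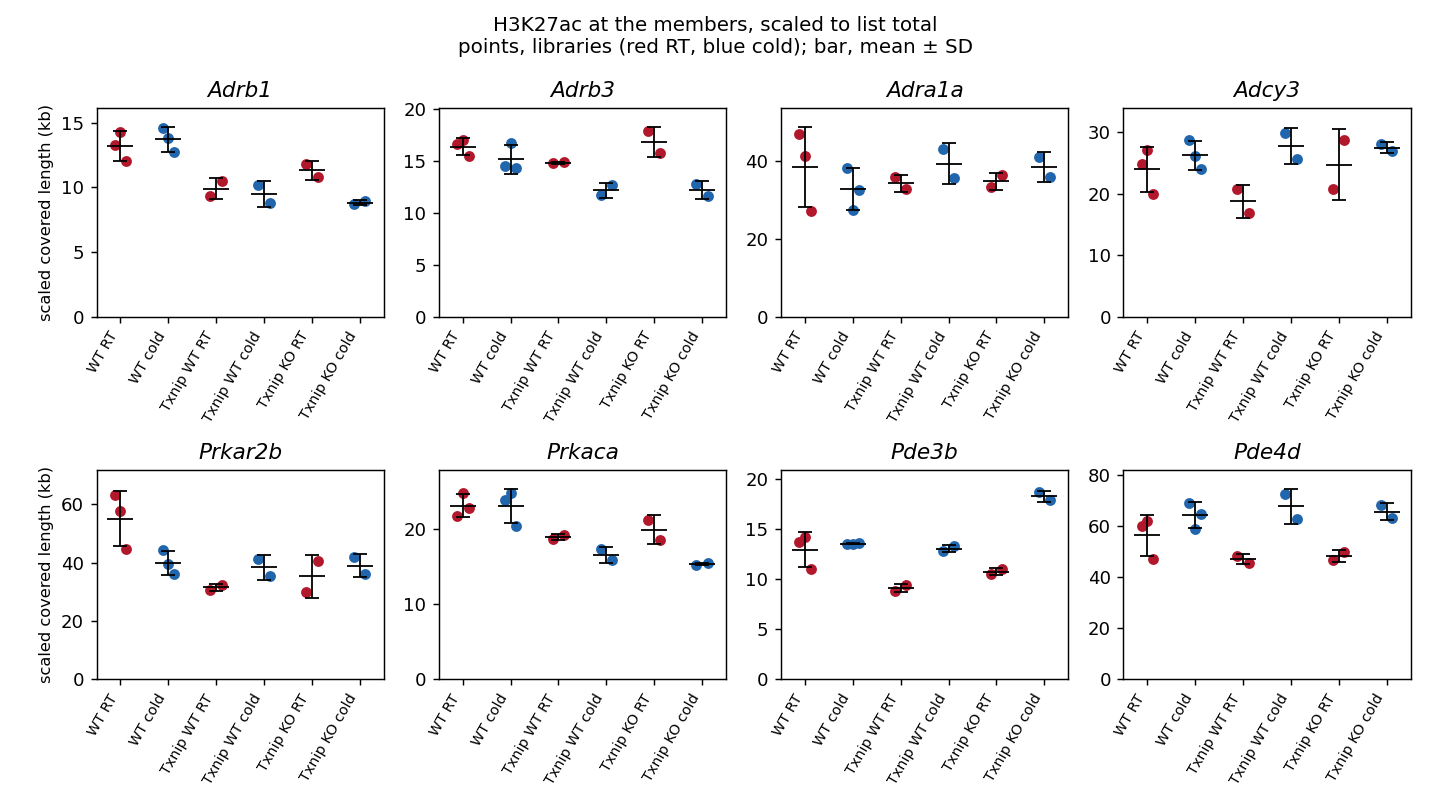
H3K27ac length of each locus in kb, scaled to the list total, in the 6 groups, with 1 point for each library and the mean ± SD. Pde3b stands at 18.7 and 17.9 kb in TXNIP KO in cold and at 12.8 and 13.3 kb in TXNIP WT in cold.

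None of the 8 genes differed between TXNIP KO and TXNIP WT by limma, at RT (0.0791% of loci called, 0 members with an unadjusted p under 0.05) or in cold (0.442%, 1 member). That member was Pde3b, with 25.5 and 23.1 kb in TXNIP KO and 14.2 and 16.3 kb in TXNIP WT in cold. The groups did not overlap, and the scaled difference was 0.47 ± 0.11 (unadjusted p = 0.000813, adjusted p = 0.073). Before scaling, 6 of the 8 genes were higher in TXNIP KO without overlap in cold. The share over all loci was not counted, so this is no result about the members. The Pde3b difference passed in 1 of 24 alternatives, without the third WT RT library (0.0338). The cold response of Pde3b in TXNIP KO minus that in TXNIP WT was 0.25 ± 0.15 (adjusted p = 0.606), and no member differed in its response (0.033% of loci did, and 0 members had an unadjusted p under 0.05). The cold response in the WT mice was also set against that in TXNIP WT, a comparison added after the values were seen. Again no member passed (0.224% of loci), with Prkar2b at -0.73 ± 0.23 (adjusted p = 0.167) and Pde3b at -0.42 ± 0.14 (0.182). Pde3b passed there without the third WT RT library (0.0274).

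The wider pathway was read from a list of 65 other genes. In PPARG, 11 rose and 3 fell of 58 tested (24.1% called, against 10.2% of all loci). Without scaling 3 rose and 8 fell, where 155 of 14105 loci rose and 1346 fell. The 4 with the smallest adjusted p all rose. They were Pkig, a PKA inhibitor (0.91 ± 0.11, adjusted p = 0.00463), Pde2a, a phosphodiesterase switched on by cyclic GMP (0.81 ± 0.11, 0.00665), Pde4c (0.68 ± 0.11, 0.00853) and the cyclase Adcy4 (1.92 ± 0.30, 0.00881). Adcy4 had scaled means of 0.122 kb at RT, below the 500 bp added, and 1.83 kb in cold. Its cold lists alone were enough for it to enter the test, so its rank is no support for a change. Over 14 alternatives its change ran from 0.76 to 3.48, and 12 passed (adjusted p up to 0.354). The endothelial markers rose in the same libraries, as given above, and their part was not tested. By role, PPARG calls were 4 higher and 1 lower of 12 phosphodiesterases and 2 higher and 1 lower of 6 cyclases, and the 7 anchoring proteins tested gave none.

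In PPARA, 5 of 47 were higher and 9 lower (29.8%, against 35.3% of all loci). Without scaling 0 and 35 were, where 8 of 10231 loci were higher and 6851 lower. The 4 with the smallest adjusted p, the anchoring protein genes Akap12, Akap11 and Akap6 and the cyclase gene Adcy8, had no peak in any cold list. They entered the test through their RT lists alone, at scaled means of 0.186 to 0.495 kb, below the 500 bp added. Cold lists at 0 have no spread, so the rank of these 4 genes is no support for a change. In H3K27ac of the WT mice 8 of 59 were higher and 8 lower (27.1%, against 11.9% of all loci). Without scaling 1 and 6 were, where 184 of 15163 loci were higher and 829 lower. Pde4c (0.56 ± 0.09, adjusted p = 0.00241) and Pde2a (0.41 ± 0.08, 0.00848) were higher, and the cyclase Adcy9 (-0.72 ± 0.13, 0.00465) and the calcium-dependent phosphodiesterase Pde1c (-0.96 ± 0.19, 0.00767) lower. Of 13 phosphodiesterases 5 rose there and 3 fell.

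In the TXNIP mice Akap6 and Adra2b fell in cold in both genotypes. Akap6, which tethers PKA, changed by -1.41 ± 0.20 in TXNIP WT and -1.37 ± 0.20 in TXNIP KO (adjusted p = 0.0031 and 0.00255), and the alpha-2B receptor gene Adra2b by -1.42 ± 0.33 and -1.50 ± 0.33 (0.0273 and 0.0151). Prkar1b and Pde3a rose in TXNIP WT (0.76 ± 0.18 and 0.75 ± 0.19), and in TXNIP KO the CREB relative Atf1 rose (0.52 ± 0.10) and Akap1 fell (-0.52 ± 0.12). Akap6 passed in all 24 alternatives in both genotypes. Adra2b had scaled means of 2.44 kb at RT and 0.609 kb in cold in TXNIP WT. In TXNIP KO they were 1.23 and 0.125 kb, the last below the 500 bp added. Adra2b passed in 17 of 24 in TXNIP WT (adjusted p up to 0.33) and 19 in TXNIP KO (up to 0.683, with a change as small as -0.19), Prkar1b in 17, Pde3a in 12, Akap1 in 19 and Atf1 in 23. The list counts were 2 higher and 2 lower of 59 in TXNIP WT (6.78%, against 6.92% of all loci). In TXNIP KO they were 3 higher and 7 lower (16.9%, against 14.2%). Both scaled shares lie near those of all loci. Without scaling the TXNIP KO counts were 20 and 2, where 4294 of 15163 loci were higher and 130 lower. No gene of the list differed between the genotypes at either temperature or in its cold response, and 4, 13 and 5 had an unadjusted p under 0.05.

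Across the 35 lists, the locus on another chromosome with the most similar profile was Aplp2 for Adrb1 (Pearson r = 0.974), Qk for Prkar2b (0.94), Cdk17 for Pde3b (0.947), Plbd1 for Pde4d (0.91), Trp53i13 for Adcy3 (0.904), Ankrd52 for Prkaca (0.89), Acadl for Adra1a (0.848) and Odf3l1 for Adrb3 (0.685). The lists of 1 target share their antibody and fixation, so these values mostly set targets apart and are a description. Adrb3 had the lowest of them. Loci on a gene's own chromosome were not searched.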

How the data were processed

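Mouse BAT ChIP-seq was analysed from 35 deposited MACS2 narrowPeak lists, 1 a library, of 52 samples. The other 17 samples are inputs and were not used as libraries. The submitters' processing notes name MACS2 2.2.7.1, BWA 0.7.17, deepTools 3.4.3, Trim Galore 0.6.0 and SAMtools, with build GRCm38.p6. The sources used here give neither settings nor read depth. Per the file columns, the authors deposited a score, a fold enrichment (a ratio) and -log10 p and q for each peak. The fold values are the authors' and only describe peaks within a list.

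Peaks were merged in each list and their length in each locus was summed. It was scaled to the list total, 500 bp were added, and the test on log2 values came from limma 3.58.1 under R 4.3.3, with a mean trend in the empirical Bayes step and Benjamini-Hochberg adjustment over all loci tested (threshold 0.05). Loci needed a peak in as many lists as the smaller group has libraries. A model each was fitted to the PPARG, the PPARA and the 14 H3K27ac libraries. The procedure was tested on simulated data. Of the loci, 76.3% overlap another, so a peak can count for neighbours. Sites are merged peaks that overlap by at least 1 bp. Gained and lost sites are held by all lists of one temperature and none of the other.

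The members and lists were chosen with earlier results of these data known. Named pathway genes are up to 4 a comparison with the smallest adjusted p and no overlap of groups. The similar locus is the best correlated one on another chromosome. Promoters come from RefSeq. Alternatives changed the scaling, the added length, the locus, the peak threshold (-log10 q of 5), the list length, the replicate block and each library.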

Additional observations from a re-analysis of the deposited data

How the results depend on the processing

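Covered length depends on how many peaks were called, and the lists give no depth to correct it with. Of the calls above, Pde3b in TXNIP KO was kept in all 24 alternatives. Without scaling, PPARA members called were 7, with Adra1a at -0.97, Adcy3 at -1.06, Prkaca at -1.28 and Pde4d at -0.90, all turned from higher to lower, and in TXNIP KO 2 were called, with Prkaca at 0.0204. ERR1 had 7 members past 2-fold without scaling. The unscaled counts over all loci are given above beside each of these. With the gene body alone, 1 member was called for PPARG and 2 for TXNIP KO (where the Adrb3 and Adrb1 bodies are covered whole in every list, so that setting says nothing of them), and Prkaca in PPARA turned to -0.14. With stricter peaks, 1 was called in the WT mice and 0 in TXNIP WT, and Prkar2b in PPARA turned to 0.0715. With lists of equal length the counts were 0 for PPARA (of 6 tested), 1 for the WT mice, 0 for TXNIP WT, 2 for TXNIP KO and 0 for ERR1. The causes were not tested.

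Of PPARG sites, 1 was gained with stricter peaks and 1 with equal lists, and 12 were lost when a peak had to cover more of the site and 3 with equal lists. For PPARA equal lists gave 3 gained and 2 lost. For H3K27ac in the WT mice equal lists gave 4 gained and 2 lost, stricter peaks 3 lost and the wider overlap 5 lost.

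Leaving out 1 library gave 0 to 1 members called for PPARG, 3 to 4 for PPARA, 0 to 1 for the WT mice, 0 to 2 for TXNIP WT, 1 to 4 for TXNIP KO, 0 to 1 for TXNIP KO against TXNIP WT in cold and 0 to 1 for the WT mice against TXNIP WT. Sites gained and lost were 0 to 1 and 5 to 10 for PPARG, 0 to 1 and 20 to 34 for PPARA, and 2 to 7 and 2 to 11 for H3K27ac. An arm left with 1 library is assumed to vary like the others.

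With the replicate block, 2 members were called for PPARA and 1 in the WT mice. Deviations of same-numbered libraries correlated weakly, at -0.22 to 0.12. Such values cannot show whether these libraries share a batch or a day, so pairing by number stays unknown. With the crossed block of the TXNIP libraries, added after the data were seen, 2 were called in TXNIP WT and 3 in TXNIP KO.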
